A study of Mus musculus with 6 samples.

Results

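*Lyrm4* and 8 partner genes of mitochondrial iron-sulfur cluster assembly (*Nfs1*, *Iscu*, *Isca1*, *Isca2*, *Hscb*, *Glrx5*, *Fdx1* and *Fdxr*) were followed in mouse tibias with and without *Atrx* in the osteoblast lineage. These 9 genes, out of 55401 gene identifiers in the count tables, were found by their GENCODE M21 symbols. *Lyrm4* was selected on its measured difference between the genotypes in these same libraries, so its values are given below as a description without a test. The partners were selected on their known roles, though with earlier results of these data known. The question asked was whether their RNA differed along with that of *Lyrm4*. All 9 passed the filter on low counts and were among the 20636 genes tested.

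Atrx-cKO mice were *Osterix-Cre; Atrx fl/y* males and controls were *Atrx fl/y* males without Cre, so all 6 animals carried the floxed allele of *Atrx*, which encodes a chromatin remodeler. The Cre transgene (Sp7-tTA,tetO-EGFP/cre) uses the *Sp7* (*Osterix*) promoter in a Tet-off design, and doxycycline kept it silent from conception until 3 weeks of age. Every Atrx-cKO mouse and no control carried this transgene, so effects of the transgene and of *Atrx* loss cannot be told apart here. Whole tibias were taken at 8 weeks, with 3 libraries per genotype, and hold marrow, vessels and other tissue next to the cells in which the transgene is active, so the RNA is a mixture of targeted and untargeted cells. Nothing in the sources used here states how the replicate libraries relate to cages or litters, and p-values measure the spread between these libraries.

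Reads counted on genes came to 58029939, 55178546 and 56970091 in Atrx-cKO replicates 1, 2 and 3 and to 54395736, 70571655 and 50977777 in control replicates 1, 2 and 3. Levels are CPM, counts scaled to the reads on genes of each library, after TMM normalization, which scales libraries to a shared composition. An allowance of 3 counts for a gene with no reads is worth 0.0425 to 0.0588 CPM at these depths and covers counting error only. *Atrx* itself had 153, 166 and 171 CPM in Atrx-cKO and 174, 166 and 165 CPM in control libraries. These groups overlap, and since the counts cover the whole gene in the whole bone they give no check of the genotype labels. The paper reports more *Cartpt* RNA in Atrx-cKO tibias from RNA-Seq of these same libraries, followed by RT-qPCR. In the counts used here *Cartpt* had 11232, 8368 and 8763 in Atrx-cKO and 0, 1 and 30 in control libraries. Those counts are therefore not independent of the paper's RNA-Seq result. *Cartpt* passed the filter on low counts only through the Atrx-cKO libraries. The defining genes of bone were present in every library, with none of the 12 osteoblast and osteocyte markers (among them *Bglap*, *Col1a1*, *Sp7* and *Dmp1*) at 0 in any of them.

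Iron-sulfur clusters are cofactors of the respiratory chain, lipoate synthesis and many DNA and RNA enzymes, and they are first built in the mitochondrial matrix. The cysteine desulfurase NFS1, held in an active form by the small LYR-motif protein LYRM4 (ISD11) and the acyl carrier protein, passes sulfur to the scaffold ISCU, with electrons supplied by ferredoxin and ferredoxin reductase. The chaperone HSPA9 and its co-chaperone HSCB release the new cluster to GLRX5, from which ISCA1 and ISCA2 carry it into the later steps.

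*Lyrm4* (ENSMUSG00000046573) lies on the minus strand of chromosome 13, at chr13:35978395-36117526 of GRCm38, and GENCODE M21 gives it 1 transcript of 3 exons and 2086 bases spread over 139132 bases. Its start faces that of *Fars2*, the mitochondrial phenylalanine tRNA synthetase gene, on the plus strand. RefSeq places the 2 starts 286 bases apart without overlap, whereas GENCODE M21 lets the first exons overlap by 115 bases, 5.51% of the exonic length of *Lyrm4*. The 250 bases before the RefSeq start of *Lyrm4* (chr13:36117358-36117607, minus strand, GRCm38.p6, RefSeq) are shown because this stretch lies between the RefSeq starts of both genes, which differed in how far apart the genotypes were. The GENCODE M21 starts of *Lyrm4* (36117526) and *Fars2* (36117412) both fall inside it, so by that annotation the stretch includes exonic bases. Capitals mark the 27 CG dinucleotides, a motif that reads the same on both strands.
Lyrm4 upstream: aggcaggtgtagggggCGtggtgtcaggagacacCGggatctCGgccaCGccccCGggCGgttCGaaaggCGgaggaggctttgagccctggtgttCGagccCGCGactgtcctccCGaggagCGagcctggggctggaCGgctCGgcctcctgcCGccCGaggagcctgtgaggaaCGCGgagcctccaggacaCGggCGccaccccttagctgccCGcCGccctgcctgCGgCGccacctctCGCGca
With the 50 bases after the start included, the window of 300 bases held 34 CG dinucleotides at a GC content of 73.3%, and 7.7% of the 32851 RefSeq promoter windows of that length held as many or more (median 7 CG dinucleotides, median GC content 52.7%). The windows of the partners that matched by symbol held 35 (*Nfs1*), 27 (*Isca1*), 24 (*Glrx5*), 22 (*Isca2*), 17 (*Fdxr*) and 16 (*Fdx1*), so a CG-rich start was not particular to *Lyrm4*. *Iscu* and *Hscb* were the other members.

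*Lyrm4* RNA was higher in every Atrx-cKO tibia than in every control. Counts were 1045, 1020 and 978 in Atrx-cKO replicates 1, 2 and 3 and 258, 347 and 236 in control replicates 1, 2 and 3. In CPM these were 17.9, 17.9 and 16.6 in Atrx-cKO against 4.52, 5.21 and 4.96 in control tibias. All 3 Atrx-cKO libraries were high, all 3 controls were low, and the groups did not overlap. The means were 17.4 ± 0.731 CPM (SD, n = 3) and 4.90 ± 0.347 CPM (SD, n = 3), a ratio of 3.56. The fitted log2 fold change was 1.83. In bulk RNA of this kind, a difference in the number of cells that express a gene and a difference in RNA per cell cannot be told apart.

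**Figure D1:**
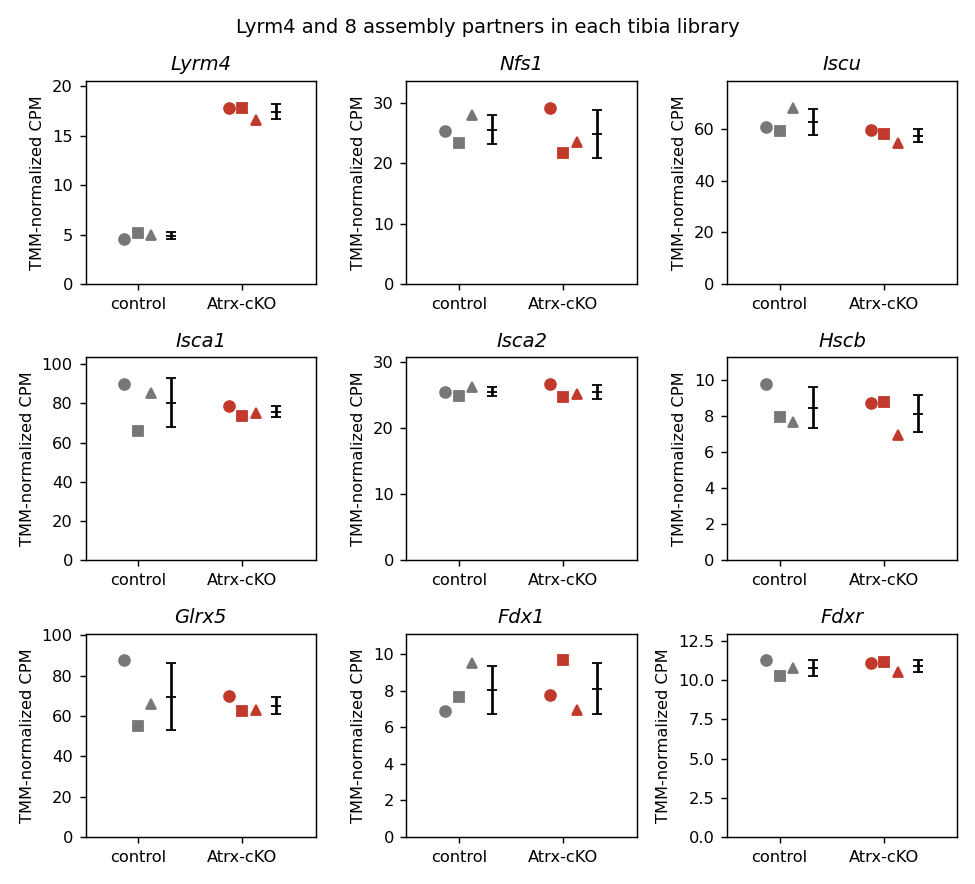
TMM-normalized CPM of *Lyrm4* and its 8 partners in each of the 3 control (grey) and 3 Atrx-cKO (red) tibia libraries, with circles, squares and triangles for replicates 1, 2 and 3 and a black bar for the mean ± SD; each axis starts at 0. *Lyrm4* sits at 16.6 to 17.9 CPM in Atrx-cKO and 4.52 to 5.21 CPM in control, and in each of the 8 partners the genotypes overlap.

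None of the 8 partners was called in either direction, in the quasi-likelihood test of edgeR, where a call needed a Benjamini-Hochberg adjusted p under 0.05 together with a log2 change past 1 or -1. Among all genes tested that rule called 3, a background of 0.0145%. Besides *Tcfl5* and *Cartpt*, both higher in Atrx-cKO, the 3 include *Lyrm4*, which was selected on this contrast, so nothing is read from its place there. With so few calls, a count of 0 among 8 is near the background, and the intervals below carry more than the count. At an unadjusted p under 0.05, 0 of the 8 passed, where 3.64% of all genes did. DESeq2, which gave 0.155% of its genes an adjusted p under 0.05, called 0 of the 8 as well. The Atrx-cKO libraries lay entirely above the controls in 0 of the 8 partners (4.30% of all genes) and entirely below in 0 (4.01% of all genes). The median log2 fold change of the partners was -0.049, next to 0.0050 for all tested genes, and every partner's 95% interval lay within -0.46 to 0.43.

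**Figure D2:**
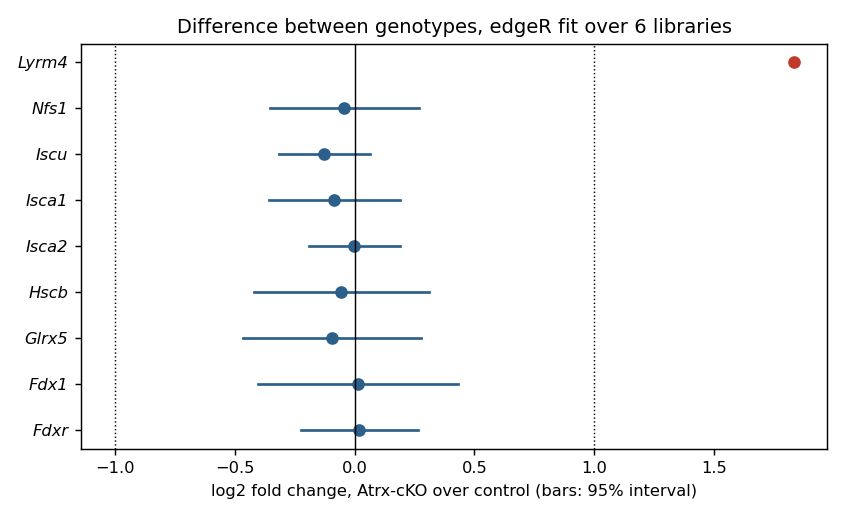
Log2 fold change of Atrx-cKO over control for the 9 genes (points), with 95% intervals (bars) for the 8 partners from the edgeR fit over 6 libraries; dotted lines mark the fold change used for calls. *Lyrm4* is at 1.83, and the 8 partners lie between -0.13 and 0.02 with intervals that all include 0.

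*Nfs1* (ENSMUSG00000027618, chr2:156123639-156144186, minus strand) encodes the desulfurase that LYRM4 binds and stabilizes. It had 29.2, 21.6 and 23.6 CPM in Atrx-cKO and 25.3, 23.3 and 28.1 CPM in control libraries. The highest and the lowest of the 6 values were both from Atrx-cKO mice, so the control range fell inside that of Atrx-cKO. The log2 fold change was -0.04 (SE 0.13, 95% interval -0.35 to 0.27, adjusted p = 0.994 by the Benjamini-Hochberg method in edgeR's quasi-likelihood test), which as a fold is bounded by 0.783 and 1.21. A change in whole-tibia *Nfs1* RNA of the size seen in *Lyrm4* lies outside this interval. Whether *Nfs1* changed in the targeted cells alone was not tested, since other cells of the tibia share in these values. The start of *Nfs1* overlaps that of *Romo1* by 148 bases on the opposite strand, and whether reads there were assigned by strand is not given in the sources used here. *Romo1* had a log2 fold change of -0.09.

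*Iscu* (ENSMUSG00000025825, chr5:113772748-113778288, plus strand), the scaffold on which clusters form, had 59.6, 58.1 and 54.7 CPM in Atrx-cKO and 60.8, 59.1 and 68.4 CPM in control libraries. Control replicate 3 was the highest of the 6, and Atrx-cKO replicate 1 lay above control replicate 2. The log2 fold change was -0.13 (SE 0.08, 95% interval -0.32 to 0.06), with an adjusted p of 0.992 from edgeR, and it ran from -0.17 to -0.07 in fits that left out 1 library. A processed pseudogene, *Gm16437*, matches part of the *Iscu* transcript closely and had 0 to 14 counts per library, against at least 3225 for *Iscu*.

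Electron supply is represented by *Fdxr* and *Fdx1*, which encode ferredoxin reductase and a ferredoxin known best for its part in steroid synthesis and lipoylation. *Fdxr* (ENSMUSG00000018861, chr11:115268024-115277050, minus strand) had 11.1, 11.2 and 10.5 CPM in Atrx-cKO and 11.3, 10.3 and 10.8 CPM in control libraries. Its 6 values were tightly bunched, and the log2 fold change was 0.02 (SE 0.11, 95% interval -0.22 to 0.26). *Fdx1* (ENSMUSG00000032051, chr9:51943306-51963556, minus strand) had 7.75, 9.67 and 6.96 CPM in Atrx-cKO and 6.92, 7.69 and 9.52 CPM in control libraries. Each genotype held 1 library near the top and others below 8 CPM, and the log2 fold change was 0.02 (SE 0.18, 95% interval -0.40 to 0.43), the widest interval of the 8. *Fdx2*, listed under its older symbol *Fdx1l* and known as the ferredoxin of cluster assembly, had 10, 34 and 3 counts in Atrx-cKO and 12, 15 and 16 counts in control libraries, with an interval from -1.73 to 1.90 that allows a large change in either direction.

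*Hscb* (ENSMUSG00000043510, chr5:110829070-110839777, minus strand) encodes the co-chaperone that hands the scaffold to HSPA9. Its values were 8.69, 8.76 and 6.94 CPM in Atrx-cKO and 9.76, 7.91 and 7.67 CPM in control libraries. The genotypes interleaved, and the log2 fold change was -0.06 (SE 0.16, 95% interval -0.42 to 0.31). *Hspa9*, the chaperone itself, was at -0.01 (95% interval -0.31 to 0.29).

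*Glrx5* (ENSMUSG00000021102, chr12:105032688-105042906, plus strand), the monothiol glutaredoxin that receives the cluster and is needed for heme synthesis in red cell precursors, had 70.1, 62.5 and 62.8 CPM in Atrx-cKO. The controls were at 87.5, 55.1 and 65.9 CPM and held both the highest and the lowest value, so the Atrx-cKO range lay within theirs. The log2 fold change was -0.09 (SE 0.16, 95% interval -0.46 to 0.28). Its spread among controls (SD 16.5 CPM on a mean of 69.5 CPM) was the largest of the 9 genes. The 11 erythroid markers, led by the globin gene *Hbb-bs*, summed to 6501, 2535 and 3130 CPM in control replicates 1, 2 and 3 and to 5069, 3918 and 4482 CPM in Atrx-cKO replicates 1, 2 and 3. Control replicate 1 was the highest and control replicate 2 the lowest in both measures, and the part of erythroid RNA in the *Glrx5* values was not tested.

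**Figure D3:**
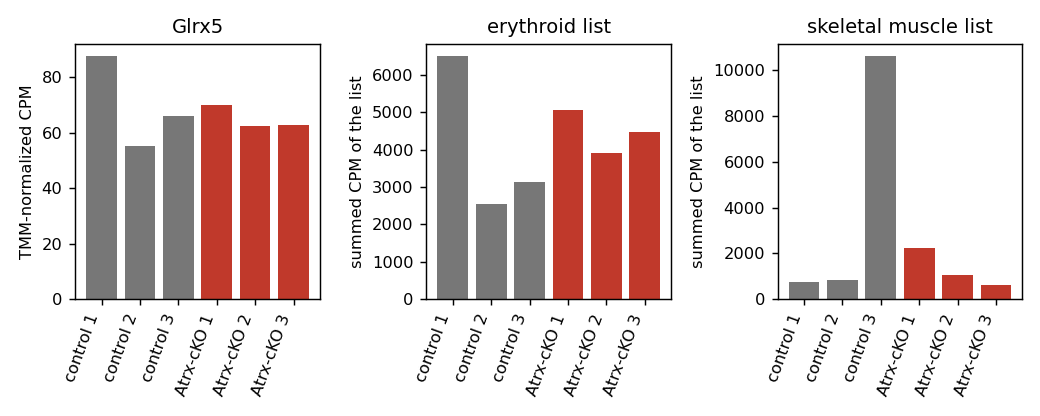
TMM-normalized CPM of *Glrx5* (left) and summed CPM of the erythroid (middle) and skeletal muscle (right) marker lists in each library, as bars from 0, controls in grey and Atrx-cKO in red. *Glrx5* and the erythroid sum are highest in control replicate 1 (87.5 and 6501 CPM), and the muscle sum is highest in control replicate 3 (10610 CPM).

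*Isca1* (ENSMUSG00000044792, chr13:59755409-59769810, minus strand) and *Isca2* (ENSMUSG00000021241, chr12:84773251-84775088, plus strand) encode the A-type carriers that build clusters with more iron and sulfur atoms for lipoate synthase and complex I. *Isca1* had 78.7, 73.5 and 74.9 CPM in Atrx-cKO and 89.8, 66.1 and 85.0 CPM in control libraries. As with *Glrx5*, the controls spread to either side of Atrx-cKO, and the log2 fold change was -0.08 (SE 0.12, 95% interval -0.36 to 0.19). *Isca1* lies on the same chromosome as *Lyrm4* and shares 314 bases at its start with *Etohd2*, an antisense transcript at a log2 fold change of -0.05. *Isca2* had 26.6, 24.6 and 25.0 CPM in Atrx-cKO and 25.4, 24.7 and 26.1 CPM in control libraries. Its means were 25.4 ± 1.05 and 25.4 ± 0.696 CPM (SD, n = 3 each), with a log2 fold change of -0.00 (SE 0.08, 95% interval -0.19 to 0.19). The adjusted p of these carriers and of *Hscb*, *Glrx5*, *Fdx1* and *Fdxr* was 0.992 or more in edgeR's quasi-likelihood test.

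Summed over the 8 partners, each library held 292, 270 and 265 CPM in Atrx-cKO and 317, 254 and 302 CPM in control tibias. The Atrx-cKO sums lay inside the control range. Across all partners the upper end of the 95% interval was at most 1.35-fold, for *Fdx1*, and the lower end at least 0.725-fold, for *Glrx5*. These bounds are for RNA of the whole tibia and not for the targeted cells alone.

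Because *Lyrm4* differed and its partners were not seen to, its place among the members was not the same in the 2 genotypes. For comparing genes, CPM were divided by the merged exon length in kilobases. Per kilobase in control tibias, *Iscu* stood highest at 28.8 ± 2.26 CPM, followed by *Glrx5* (18.9 ± 4.48), *Isca2* (13.8 ± 0.379), *Hscb* (9.33 ± 1.27), *Isca1* (7.52 ± 1.17), *Nfs1* (7.08 ± 0.667), *Fdxr* (3.84 ± 0.179), *Fdx1* (2.59 ± 0.429) and *Lyrm4* (2.35 ± 0.167; SD, n = 3 throughout). Neighbors in this order had separate library ranges except *Isca1* with *Nfs1* and *Fdx1* with *Lyrm4*. In Atrx-cKO tibias *Lyrm4* reached 8.36 ± 0.350 CPM per kilobase, rank 5 of 9, where its libraries overlapped those of *Hscb* (8.98 ± 1.14) and lay above those of *Isca1* (7.09 ± 0.253). *Nfs1*, which encodes the direct partner, was at 6.87 ± 1.10 CPM per kilobase there, so *Lyrm4* went from the level below *Nfs1* in control to a mean above it in Atrx-cKO. These ranks depend on the length used, since the merged exons of *Isca1* cover 10680 bases and its longest coding transcript 1942. By longest coding transcript, a choice added after the data were seen, *Lyrm4* was at rank 9 in control and rank 7 in Atrx-cKO, and *Nfs1* was above it in both (12.5 and 12.1 CPM per kilobase).

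A wider set of 79 genes in 6 lists was read from the same fit, and all were tested. None was called by edgeR in either direction or had an adjusted p under 0.05 in DESeq2. Over all genes these shares were 0.0145% and 0.155%. At an unadjusted p under 0.05, 1 of the 79 passed in edgeR, against 3.64% of all genes. All Atrx-cKO libraries exceeded all controls for 2 of the 79 (*Mms19* and *Rsad2*) and fell below all of them for 1 (*Etfdh*), against 4.30% and 4.01% of all tested genes, so these counts do not stand above the background. The median log2 fold change of the 79 genes was -0.01.

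The 14 other mitochondrial assembly genes had a median log2 fold change of 0.02. *Ndufab1*, the acyl carrier protein that binds LYRM4, was at -0.01 (95% interval -0.29 to 0.27). *Nubpl*, an assembly factor for complex I, was highest in the list at 0.34 (95% interval -0.17 to 0.85), and *Bola3*, a late-acting partner of GLRX5, was lowest at -0.20 (95% interval -0.47 to 0.07). *Slc25a37* (mitoferrin-1), the iron importer of red cell precursors and the most abundant of the list per kilobase, was at 0.02 with its highest value in control replicate 1 (355 CPM), as for *Glrx5*.

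The LYR family shares with *Lyrm4* a short motif that docks on the acyl carrier protein, and its 10 other members had a median log2 fold change of -0.03. *Lyrm7*, which serves complex III, was highest at 0.32 with only 0.81 to 3.09 CPM and an interval of -0.74 to 1.37. *Sdhaf3*, a complex II assembly factor, was lowest at -0.25 (95% interval -0.74 to 0.24), and *Ndufa6*, a complex I subunit and the most abundant per kilobase, was at -0.11. None of the family's intervals excluded 0. Estimates below 0 numbered 7 of 10, and 3 of 10 with libraries scaled by size alone (median 0.04).

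The 11 genes of cytosolic assembly, which depends on an export product of the mitochondrial machinery, had a median of 0.03. *Ciao2a*, also the most abundant per kilobase, was highest at 0.16 and *Ciao2b* lowest at -0.08, both targeting factors that deliver clusters to client proteins. *Mms19*, the adaptor for DNA repair enzymes, had 69.4, 61.0 and 66.5 CPM in Atrx-cKO and 59.0, 59.1 and 58.6 CPM in control libraries. Its groups did not overlap, though the log2 fold change of 0.16 had an adjusted p of 0.992 in edgeR's quasi-likelihood test.

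Proteins that carry the clusters were read as the end users of the pathway. The 15 mitochondrial ones had a median log2 fold change of -0.06. Of the 15 estimates 14 were below 0, but 8 were without control replicate 3 (median -0.03) and 4 with libraries scaled by size alone (median 0.01). *Cisd1* (mitoNEET), an outer membrane protein, was lowest at -0.25 (95% interval -0.53 to 0.02), and *Cdk5rap1*, a tRNA modifying enzyme, highest at 0.17. *Etfdh*, which passes electrons from fatty acid oxidation to ubiquinone, was the gene whose Atrx-cKO libraries all lay below the controls, by a log2 fold change of -0.06. The 10 skeletal muscle markers, led by *Myh4*, summed to 759, 825 and 10610 CPM in control replicates 1, 2 and 3 and 2229, 1071 and 626 CPM in Atrx-cKO replicates 1, 2 and 3, so control replicate 3 stood apart in muscle RNA. Its part in these values was not tested.

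The 18 cytosolic and nuclear cluster proteins had a median of 0.10, with 14 of 18 estimates above 0. This median rested on single libraries, at 0.02 without Atrx-cKO replicate 1, 0.04 without control replicate 3, 0.05 without control replicate 2 and 0.16 without control replicate 1, and was 0.17 when libraries were scaled by size alone. *Rsad2* (viperin), an interferon-induced radical SAM enzyme and the most abundant per kilobase, had 112, 112 and 113 CPM in Atrx-cKO and 109, 65.9 and 57.1 CPM in control libraries. It was the gene of the 79 with an unadjusted p under 0.05 (log2 fold change 0.54, adjusted p = 0.992 from edgeR), and control replicate 1 lay near the Atrx-cKO level. *Elp3*, of the tRNA-modifying Elongator complex, was lowest at -0.13.

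The 11 genes of iron handling had a median of -0.01. *Tfrc*, the transferrin receptor, was lowest at -0.11 and *Alas2*, the first enzyme of heme synthesis in red cell precursors, highest at 0.12 with a wide interval of -0.67 to 0.92. *Ftl1*, the ferritin light chain and the most abundant per kilobase, was at -0.01 (95% interval -0.25 to 0.23).

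**Figure D4:**
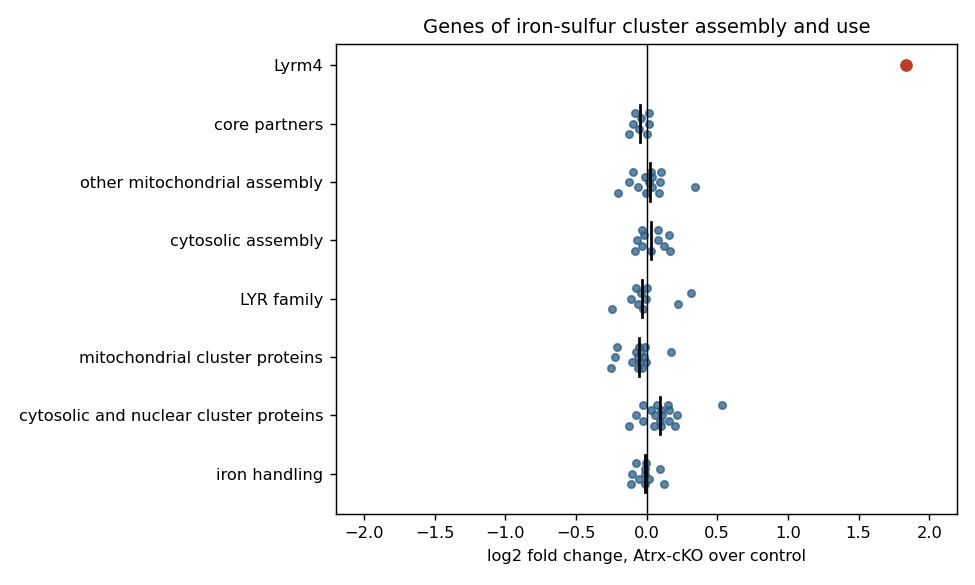
Log2 fold change of Atrx-cKO over control for each tested gene (points) of the core partners and the 6 wider lists, with the list median as a black bar and *Lyrm4* in red at the top. The list medians lie between -0.06 and 0.10, and no gene of the lists reaches the 1.83 of *Lyrm4*.

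Around *Lyrm4* on chromosome 13, the 10 tested genes on either side were read from the same fit. None of the 20 was called by edgeR, 2 had an unadjusted p under 0.05 (*Ppp1r3g* and *Fars2*), and 1 had an adjusted p under 0.05 in DESeq2 (*Ppp1r3g*). The midpoints of these genes lay from -1458 to 1365 kb from the start of *Lyrm4*, so many are distant. The median log2 fold change of the 20 was 0.18, and in 4 of them the Atrx-cKO libraries lay entirely above the controls, with 0 entirely below. Those 4 were *Ppp1r3g*, *Fars2*, *Prpf4b* (log2 fold change 0.08, at -1227 kb) and *Gm47730* (0.65, under 1 CPM in every library). Over all tested genes 3.64% had an unadjusted p under 0.05, 4.30% lay entirely above and 4.01% entirely below. Among all genes, edgeR called 0.0145%, and DESeq2 gave 0.155% of its genes an adjusted p under 0.05.

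*Fars2* had 13.5, 12.6 and 13.6 CPM in Atrx-cKO and 11.6, 9.80 and 11.3 CPM in control libraries. The groups did not overlap but lay close, with a ratio of means of 1.21 against 3.56 for *Lyrm4*, whose RefSeq start faces that of *Fars2* across the sequence shown above. The genes share 115 exonic bases in GENCODE M21, and whether reads there were assigned by strand is not given in the sources used here. The log2 fold change of *Fars2* was 0.28 (95% interval 0.01 to 0.54, adjusted p = 0.992 by the Benjamini-Hochberg method in edgeR's quasi-likelihood test).

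*Ppp1r3g*, which encodes a glycogen-targeting subunit of protein phosphatase 1, lies past the other end of *Lyrm4*, with its 3′ end 8.007 kb from that of *Lyrm4*. It was nearly absent from control tibias, with 5, 6 and 0 counts in control replicates 1, 2 and 3, against 39, 32 and 46 counts in the Atrx-cKO tibias. In CPM these are 0.667, 0.560 and 0.781 against 0.0876, 0.0901 and 0, so the groups did not overlap. The log2 fold change was 3.38 (95% interval 1.80 to 4.96). Its adjusted p was 0.992 in edgeR and 0.00282 in DESeq2, so the call depended on the tool. *Ppp1r3g* passed the filter on low counts through the Atrx-cKO libraries alone, and it had been seen to differ in these data before the locus was described, so its tests and its place in the counts over the 20 neighbors support nothing.

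The other nearest tested genes on that side were *Gm48746* (1.30, at most 31 counts in a library), *Rpp40* (-0.22), *Cdyl* (-0.01) and *Eci2* (0.00, at -1115 kb). Their log2 fold changes, in parentheses, had intervals that include 0. Without 1 library, *Gm48746* ran from 0.83 to 1.76 and *Rpp40* from -0.36 to -0.078. *Rpp40* encodes a subunit of RNase P, *Cdyl* a chromodomain corepressor and *Eci2* an enzyme of fatty acid oxidation. On the *Fars2* side, *Nrn1* (0.29), *Gm47675* (0.21) and *F13a1* (0.23, the A subunit of clotting factor XIII) likewise had intervals that include 0. Within the introns of *Lyrm4*, the pseudogene *Tmed10-ps* had 25, 10 and 22 counts in Atrx-cKO and 23, 27 and 18 counts in control libraries (log2 fold change -0.28), values that overlap between the genotypes.

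**Figure D5:**
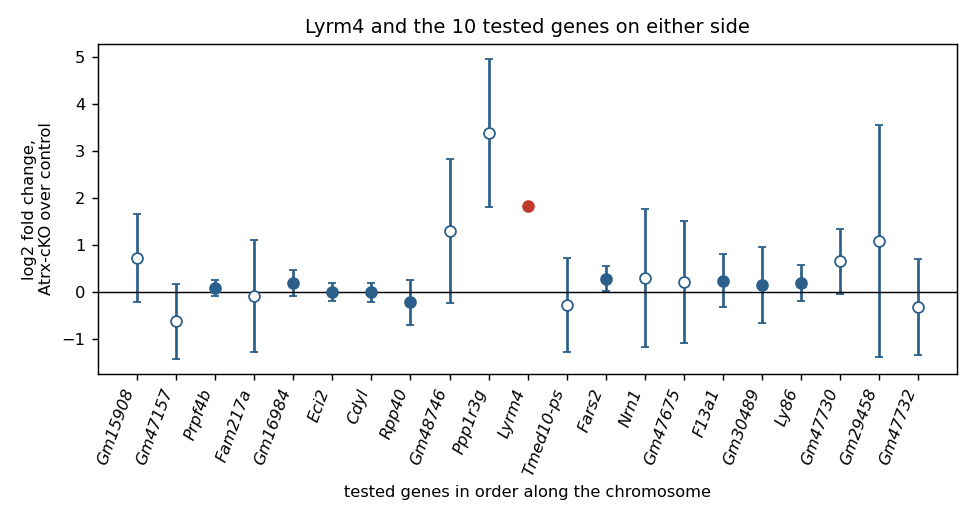
Log2 fold change of Atrx-cKO over control for *Lyrm4* (red, without an interval) and, with 95% intervals, the 10 tested genes on either side in chromosomal order; open points have a mean under 1 CPM. *Lyrm4* at 1.83 stands next to *Ppp1r3g* at 3.38, and *Fars2* is at 0.28.

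Over the 6 libraries, the genes whose pattern was closest to that of *Lyrm4* were sought by the root mean square difference of log2(CPM + 0.5), each gene centred on its own mean. They were *Bglap3* (0.293), *Ppp1r3g* (0.367), *Saa3* (0.368), *Chrna4* (0.412) and *B230362B09Rik* (0.464). *Bglap3*, an osteocalcin-related gene, had 4.91, 5.92 and 6.16 CPM in Atrx-cKO and 1.77, 2.54 and 2.18 CPM in control libraries. The other 4 were at 3.08 CPM or less in every library. The order of this list rests on the pseudocount, and with 0.1 or 1 CPM in place of 0.5 CPM, 2 of the 5 genes were retained, *Bglap3* in each case. The partners of *Lyrm4* ranked from 8131 (*Fdxr*) to 15642 (*Glrx5*) of the 20635 other genes by the same measure with 0.5 CPM. That measure takes the distance to the values on which *Lyrm4* was selected. By construction, a gene with a like difference between the genotypes is therefore near it, and a gene that did not differ is far. *Ppp1r3g*, *Chrna4* and *B230362B09Rik* also passed the filter on low counts only through the Atrx-cKO libraries. Nothing is read from the 5 genes or from these ranks.

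The cell types that a tibia holds were read through marker lists as well. None of their genes was called by edgeR or had an adjusted p under 0.05 in DESeq2. Over all genes these shares were 0.0145% and 0.155%, so a count of 0 is near the background. The osteoblast and osteocyte list, in the lineage where *Cre* acts, summed to 115891, 116514 and 119542 CPM in Atrx-cKO and 110161, 186413 and 167545 CPM in control libraries, led by the collagen gene *Col1a1*. The median log2 fold change of its 12 genes was -0.23. It ran from -0.31 without Atrx-cKO replicate 2 to -0.15 without Atrx-cKO replicate 1. Medians were -0.40 for 8 osteoclast genes, 0.19 for 7 chondrocyte genes, 0.21 for 8 neutrophil genes, 0.17 for 8 B cell genes, -0.28 for 6 adipocyte genes, 0.13 for 5 endothelial genes, 0.10 for the erythroid and -1.42 for the muscle genes. The muscle median rested on control replicate 3 and was 0.53 without it, and the chondrocyte, erythroid, adipocyte and B cell medians also changed sign without single libraries. Without control replicate 3 the neutrophil median was 0.07 and the osteoclast median -0.20. The neutrophil median was 0.05 when Atrx-cKO replicate 1 was left out. In 2 lists the median and the summed level differed in sign. The chondrocyte sum averaged 1011 CPM in Atrx-cKO and 1433 CPM in control, and its most abundant gene, *Col2a1*, was at a log2 fold change of -0.56 (adjusted p = 0.992 in edgeR). The adipocyte sum averaged 222 CPM in Atrx-cKO and 203 CPM in control. The summed levels of all lists but the endothelial one overlapped between genotypes. Endothelial markers, led by *Cdh5*, summed to 514, 527 and 528 CPM in Atrx-cKO and 506, 466 and 466 CPM in control libraries. How much the makeup of the tissue contributed to the *Lyrm4* values was not tested.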

How the data were processed

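RNA of 6 whole tibias was sequenced as paired-end reads. The authors deposited raw counts of reads per gene for each library, without normalization, with 5 summary entries that entered neither the library sizes nor the tests (reads on no feature were 51.6% to 52.4% of each table). The submitters' processing notes name GRCm38 and DESeq2; the aligner, the counter and its strand setting are not given in the sources used here. Symbols, lengths and coordinates are those of GENCODE M21 on GRCm38, which matched 55141 of 55401 identifiers, and promoter sequences are those of RefSeq.

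Counts were fitted with edgeR 4.0.16 in R 4.3.3 (TMM factors, filterByExpr at its defaults, glmQLFit and glmQLFTest, genotype as the only term, Benjamini-Hochberg adjustment over 20636 genes) and called at an adjusted p under 0.05 where the log2 change was past 1 or -1. DESeq2 1.42.0 was the alternative test, and the fits were tested on simulated data. Other alternatives were RLE size factors, library size alone, no filter, at least 10 counts in every library, a replicate block, and leaving out each library. With 3 libraries against 3, an exact two-sided permutation test cannot go below p = 0.1, and none was used.

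Genes named were the 9 members, list genes with an adjusted p under 0.05, the highest, lowest and most abundant gene (per kilobase) of each pathway list, the 5 nearest tested genes on either side of *Lyrm4*, and the 5 genes of most similar pattern. Marker genes and others (*Ndufab1*, *Hspa9*, *Fdx2*, *Mms19*, *Etfdh*, *Prpf4b*, *Gm47730*, *Tcfl5*, *Cartpt*, *Atrx* and overlapping genes) were named after their values were seen. The members and lists were chosen with earlier results of these data known. Some genes of the lists are not reported here. No library was left out of the reported values.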

Additional observations from a re-analysis of the deposited data

How the results depend on the processing

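Of the 8 partners and of the 79 wider genes, 0 were called under each of the 12 alternatives, and the smallest adjusted p of a partner was 0.640. Partner log2 fold changes stayed between -0.24 and 0.14, with interval ends from -0.60 to 0.58 in the edgeR fits. The fitted log2 fold change of *Lyrm4*, a description, ran from 1.78 to 1.91. The 3 genes called higher became 10 in DESeq2, 1 with at least 10 counts in every library and 0 with the replicate block; the genes called lower, 0 in the fit over all libraries, became 13 in DESeq2 and 1 without a filter. Among the genes around *Lyrm4*, 1 was called in DESeq2. Without 1 library, 0 to 5 genes were called higher, the 5 without control replicate 3 and the 0 without control replicate 2, Atrx-cKO replicate 1 or Atrx-cKO replicate 2, and 0 to 1 lower, the 1 without Atrx-cKO replicate 3. Some alternatives hold fewer genes or libraries, and the causes of these differences were not tested.

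Library size alone moved the median of all genes from 0.0050 to 0.077 and turned the sign of *Nfs1* (0.029), *Isca2* (0.071), *Hscb* (0.0076) and *Cdyl* (0.059). Leaving out 1 library gave log2 fold changes that crossed 0 for genes close to it, from -0.18 to 0.039 for *Nfs1*, -0.21 to 0.0056 for *Isca1*, -0.035 to 0.013 for *Isca2*, -0.13 to 0.062 for *Hscb*, -0.24 to 0.11 for *Glrx5*, -0.14 to 0.14 for *Fdx1*, -0.016 to 0.053 for *Fdxr*, -0.045 to 0.055 for *Eci2*, -0.051 to 0.031 for *Cdyl*, -0.52 to 0.0070 for *Tmed10-ps*, -0.15 to 0.88 for *Nrn1*, -0.27 to 0.45 for *Gm47675* and -0.046 to 0.45 for *F13a1*. Same-numbered libraries deviated with correlations of -0.0032, 0.11 and -0.10, which gave no sign that the numbers pair the mice. The median of the partners ran from -0.11 to 0.0028 without 1 library and was 0.018 with library size alone. Other list medians ran, without 1 library, from -0.083 to 0.076 for other mitochondrial assembly, -0.061 to 0.064 for cytosolic assembly, -0.090 to -0.013 for the LYR family, -0.12 to -0.023 for mitochondrial cluster proteins, -0.12 to 0.060 for iron handling, -0.58 to 0.47 for chondrocyte, -0.17 to 0.57 for erythroid, -0.42 to 0.024 for adipocyte, -0.034 to 0.43 for B cell and -1.94 to 0.53 for skeletal muscle genes. At these depths, levels under 0.0425 to 0.0588 CPM cannot be told from 0, counting error alone considered.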
